A study of Rattus norvegicus with 64 samples.

Results

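The Fc receptors for immunoglobulin G (IgG) were followed in the whole blood of 64 rats. A gene was taken as a member when its symbol in the count files, in upper or lower case, was Fcgr1a, Fcgr2a, Fcgr2b, Fcgr3a, Fcer1g or Fcgrt. These 6 symbols matched 7 gene identifiers of the 26405 listed in any file, because Fcgr2a (ENSRNOG00000003138) and FCGR2A (ENSRNOG00000050418) both matched. All 7 were listed for all 64 rats. The remaining identifiers were ENSRNOG00000021199 for Fcgr1a, ENSRNOG00000024382 for Fcgr3a, ENSRNOG00000046452 for Fcgr2b, ENSRNOG00000024159 for Fcer1g and ENSRNOG00000020583 for Fcgrt.

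Fc gamma receptors bind the constant part of IgG and let phagocytes respond to antibody-coated particles. Fcgr1a encodes the high-affinity receptor, and Fcgr2a and Fcgr3a encode low-affinity activating receptors. Activating receptors signal through an immunoreceptor tyrosine-based activation motif, which is supplied by the common gamma chain that Fcer1g encodes and is read by the kinase Syk. Fcgr2b carries an inhibitory motif that recruits the phosphatase encoded by Inpp5d. Fcgrt encodes the neonatal receptor, which pairs with beta-2-microglobulin (B2m) and protects IgG from breakdown inside cells. In blood, Fc gamma receptors are found mainly on neutrophils, monocytes, natural killer (NK) cells and B cells.

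The rats were male Sprague-Dawley animals of 85 to 90 days, each received 4 injections given 2 h apart, and blood was drawn from the heart 3 h after the last. Of the 64 rats, 6 received saline at 22.5 C (the controls), 5 saline at 16 C, 16 saline at 39 C (hyperthermia caused by the environment), 15 amphetamine (AMPH) at 16 C (labelled normothermic) and 22 AMPH at 22.5 C (labelled hyperthermic). Rats with more than 5000 counts of the muscle gene Mb, which can enter blood drawn through heart muscle, were left out of the tests and group levels, and 59 remained (4 controls, 5 saline 16 C, 15 saline 39 C, 13 AMPH 16 C and 22 AMPH 22.5 C). Library codes in the deposited file names differed between rats. Their meaning is not stated in the sources used here, and they entered the comparisons of groups that shared codes as a covariate.

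Total counts per rat ran from 19055615 to 40530319. All 8 neutrophil markers, all 7 monocyte markers and all 6 T cell markers that the files list were above 0 in each group. The AMPH 22.5 C rats numbered 15 to 22 carry the same form of animal ID as the controls and were set against the 4 controls. By mean correlation, replicates 16, 17 and 20 of these were closer to the controls than to the other AMPH rats of the set. For replicates 16 and 20 the gaps were small, at 0.918 against 0.893 and 0.915 against 0.901. The means with AMPH rats include replicate 21, which correlated at 0.739 with the other AMPH rats and at 0.715 with the controls. The order without replicate 21 was not tested. Over 8069 genes the mean correlation of replicate 17 was 0.942 with the controls and 0.818 with the other AMPH rats of the set, whereas control 19 correlated at 0.915 with the controls and at 0.903 with the AMPH rats. Results that rest on these 2 libraries are also given without them. The 2 were picked from expression in these same data, so calls in fits without them are no independent support. In whole blood, fewer cells of a type and less RNA per cell cannot be told apart. Levels below are read counts normalized by DESeq2 size factors, and they compare rats, not genes, because they are not divided by gene length.

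The promoters of Fcgr3a and Fcgr2a are shown because the mean levels of these activating receptors stood on opposite sides of the controls in AMPH and heat-exposed rats, and that of Fcgrt because it stood lowest in the AMPH 16 C rats. RefSeq (build GRCr8, a later build than that of the count files) gave promoters for 3 of the members, each 300 bases, here read 5′ to 3′ on the gene's strand. Capitals mark GAGGAAG, a sequence of the kind that ETS factors such as PU.1 bind, or its reverse complement CTTCCTC, and, in Fcgrt, TTCNNNGAA, a sequence of the kind that STAT factors bind. The Fcgr3a promoter is at chr13:85782386-85782685 on the plus strand, the Fcgr2a promoter shown is at chr13:85828636-85828935 on the minus strand, and the Fcgrt promoter is at chr1:104719977-104720276 on the minus strand.
Fcgr3a: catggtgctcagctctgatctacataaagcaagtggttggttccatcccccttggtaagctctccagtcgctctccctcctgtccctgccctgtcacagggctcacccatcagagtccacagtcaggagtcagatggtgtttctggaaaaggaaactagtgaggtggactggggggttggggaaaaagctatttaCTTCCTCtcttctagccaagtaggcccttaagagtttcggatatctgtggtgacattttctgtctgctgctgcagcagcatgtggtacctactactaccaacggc
Fcgr2a: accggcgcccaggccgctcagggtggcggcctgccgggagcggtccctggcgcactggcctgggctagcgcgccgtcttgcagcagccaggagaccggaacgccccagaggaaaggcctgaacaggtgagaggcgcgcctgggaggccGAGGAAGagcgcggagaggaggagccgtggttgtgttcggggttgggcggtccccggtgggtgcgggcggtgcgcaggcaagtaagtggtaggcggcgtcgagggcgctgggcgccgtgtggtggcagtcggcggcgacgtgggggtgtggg
Fcgrt: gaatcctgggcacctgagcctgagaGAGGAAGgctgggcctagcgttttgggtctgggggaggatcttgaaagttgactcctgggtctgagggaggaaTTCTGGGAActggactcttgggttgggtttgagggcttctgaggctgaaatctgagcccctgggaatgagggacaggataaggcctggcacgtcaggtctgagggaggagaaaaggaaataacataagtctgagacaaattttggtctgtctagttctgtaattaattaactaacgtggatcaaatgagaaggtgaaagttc
GAGGAAG was found on either strand in 12.4% of 33469 rat promoters of this length and TTCNNNGAA, which reads the same on both strands, in 8.87%. Each promoter shown held 1 GAGGAAG, and the window of a second Fcgr2a start held neither sequence. On that build Fcgr2b, Fcgr3a, Fcgr2a and Fcer1g lie in this order along chromosome 13. RefSeq lists Fcgr4 and CD16-2 as other names of rat Fcgr3a, and Fcgr3 and Fcgr3a as other names of rat Fcgr2a. The name Fcgr3a alone can thus stand for either gene.

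Fcgr1a, the high-affinity receptor, was lowest in the controls. Its levels in the 4 controls were 995, 1343, 3845 and 2599.9 normalized counts (replicates 17, 18, 19 and 21). The group means, in ascending order, were 2196 ± 1298 (SD, n = 4) in controls, 3624 ± 928 (n = 5) in saline 16 C, 4293 ± 1838 (n = 15) in saline 39 C, 4731 ± 1732 (n = 22) in AMPH 22.5 C and 4770.1 ± 816 (n = 13) in AMPH 16 C rats. Each pair of neighbours in this order differed by less than the larger of its SDs, except controls and saline 16 C rats, whose ranges still overlapped. The highest mean was 2.17 times the lowest.

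Fcgr2a, a low-affinity activating receptor, had the widest spread of means among the receptors present in all rats, with the highest mean 3.38 times the lowest. The controls held 1491, 1403, 5401 and 3230.0 normalized counts. Means, in ascending order, were 2881 ± 1879 (SD, n = 4) in controls, 5987 ± 796 (n = 5) in saline 16 C, 7392 ± 1844 (n = 13) in AMPH 16 C, 9613 ± 4551 (n = 22) in AMPH 22.5 C and 9728 ± 5242 (n = 15) in saline 39 C rats. Among the last 3 groups, neighbours differed by less than the larger of their SDs. Control 19 lay well above the other controls for both Fcgr1a and Fcgr2a.

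Fcgr3a had another order. Its controls held 601, 523, 396 and 379 normalized counts, and the saline 16 C rats 247, 145, 1205, 205 and 668. The lowest mean was 206 ± 138 (SD, n = 22) in AMPH 22.5 C, followed by 256 ± 196 (n = 15) in saline 39 C, 306 ± 245 (n = 13) in AMPH 16 C, 475 ± 106 (n = 4) in controls and 494 ± 448 (n = 5) in saline 16 C rats. The saline 16 C mean rested on 2 high rats, so the median of that group, 247, was near those of AMPH 16 C (208) and saline 39 C (218).

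Fcgr2b, the inhibitory receptor, was lowest in the controls, with 603, 761, 1656 and 1132 normalized counts. Means were 1038 ± 468 (SD, n = 4) in controls, 1388 ± 487 (n = 5) in saline 16 C, 1964 ± 627 (n = 22) in AMPH 22.5 C, 2026 ± 536 (n = 15) in saline 39 C and 2046 ± 678 (n = 13) in AMPH 16 C rats. The last 3 groups could not be separated by their spread.

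Fcer1g, the signalling gamma chain, split the groups by another pattern. Means were 9130 ± 4340 (SD, n = 4) in controls, 11519 ± 3338 (n = 15) in saline 39 C, 12933 ± 7404 (n = 22) in AMPH 22.5 C, 17676 ± 4026 (n = 5) in saline 16 C and 18869 ± 2431 (n = 13) in AMPH 16 C rats. The AMPH 16 C rats ran from 15331 to 23351 around a median of 18143, and the AMPH 22.5 C rats from 6164 to 43802 around a median of 11941. Both groups kept at 16 C were the highest.

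Fcgrt, the neonatal receptor, was counted at 25 to 320 reads per rat. Its mean was 67.9 ± 24.5 (SD, n = 13) in AMPH 16 C rats, against 117 ± 10.7 (n = 5) in saline 16 C, 120 ± 51.7 (n = 15) in saline 39 C, 124 ± 49.0 (n = 22) in AMPH 22.5 C and 132 ± 39.7 (n = 4) in control rats. The AMPH 16 C mean was the lowest, but the AMPH 16 C rats (33.9 to 110.2) overlapped with all 4 other groups, whose means differed from each other by less than their larger SD.

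**Figure D1:**
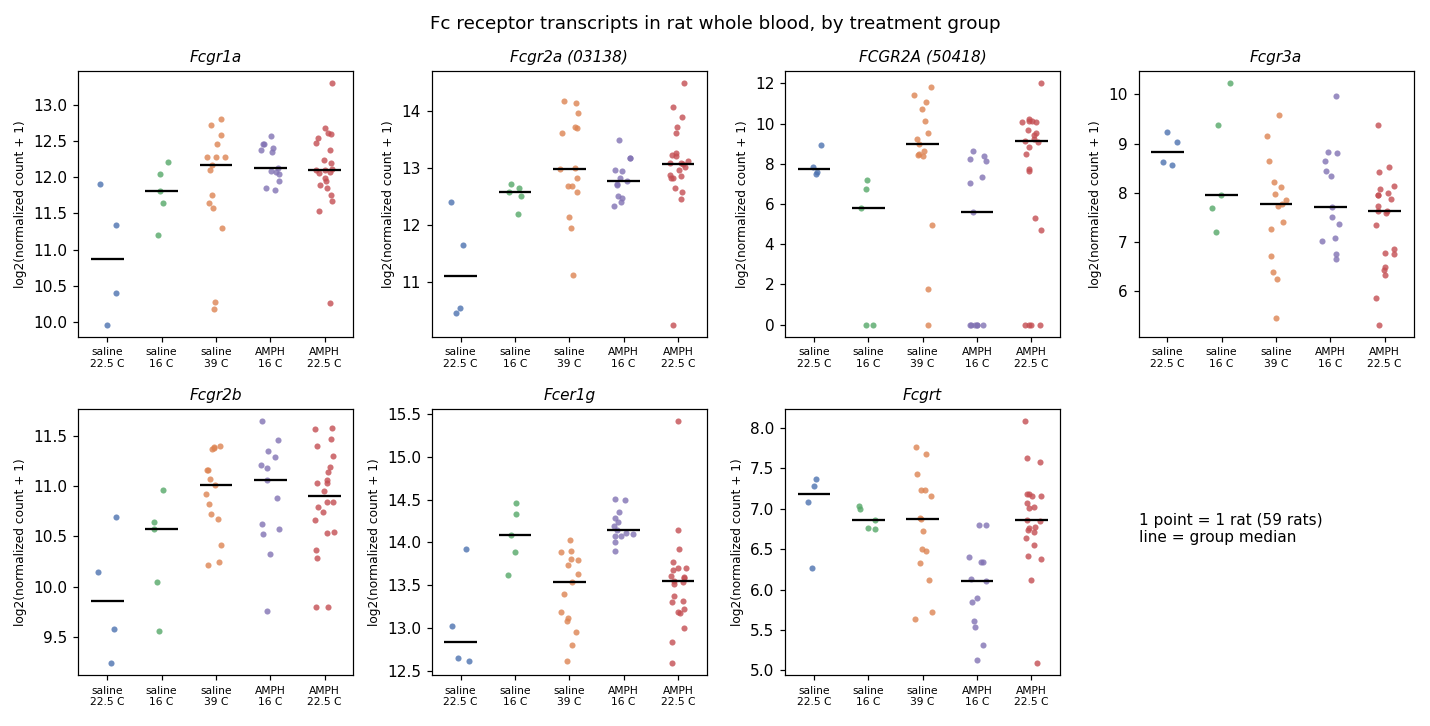
Level of each member on the scale log2(normalized count + 1), vertical axis, in the 5 groups, horizontal axis, with 1 point per rat (59 rats) and a line at the group median. Fcgr1a, Fcgr2a and Fcgr2b have their lowest medians in the controls, Fcer1g its highest in AMPH 16 C (18143 normalized counts) and Fcgrt its lowest in AMPH 16 C rats (67.9).

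The balance of activating to inhibitory receptors was described by the log2 ratio of each activating member's count to that of Fcgr2b in the same rat, after adding 1 count to each, in all 64 rats. This ratio needs no library size, and it is compared between rats only. For Fcgr2a it was 1.25 ± 0.32 (SD, n = 6) in controls, 1.94 ± 0.39 (n = 15) in AMPH 16 C, 2.05 ± 0.84 (n = 16) in saline 39 C, 2.18 ± 0.48 (n = 5) in saline 16 C and 2.20 ± 0.68 (n = 22) in AMPH 22.5 C rats. It exceeded all 6 controls in 17 of 22 AMPH 22.5 C, 13 of 15 AMPH 16 C, 13 of 16 saline 39 C and 4 of 5 saline 16 C rats. The ratio of Fcgr2a to Fcgr2b was thus lowest in the controls, and the other groups overlapped broadly. The controls shared library codes with AMPH 22.5 C rats alone. Against the other 3 groups, code and group therefore cannot be told apart in this or the following ratios. Counts of both genes were not whole numbers in 98.4% of rats, because shared reads were divided (described with the gene models).

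For Fcgr3a the ratio was highest in the controls. It was -1.03 ± 0.76 (SD, n = 6) in controls, -1.87 ± 1.26 (n = 5) in saline 16 C, -2.99 ± 0.80 (n = 15) in AMPH 16 C, -3.26 ± 1.25 (n = 16) in saline 39 C and -3.46 ± 1.11 (n = 22) in AMPH 22.5 C rats. It lay below all 6 controls in 20 of 22 AMPH 22.5 C, 13 of 15 AMPH 16 C, 14 of 16 saline 39 C and 3 of 5 saline 16 C rats. For Fcgr1a the groups overlapped, with means of 0.91 ± 0.25 in controls, 0.95 ± 0.86 in saline 39 C, 1.25 ± 0.57 in AMPH 22.5 C, 1.33 ± 0.54 in AMPH 16 C and 1.42 ± 0.61 in saline 16 C rats. Saline 39 C replicates 7 and 9 were the only rats below 0 for Fcgr1a, at -0.89 and -1.23.

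When the 4 activating members were summed, the log2 ratio to Fcgr2b was 2.34 ± 0.22 in controls, 2.73 ± 0.82 in saline 39 C, 2.73 ± 0.38 in AMPH 16 C, 2.92 ± 0.56 in AMPH 22.5 C and 2.94 ± 0.49 in saline 16 C rats. This sum leaves out the FCGR3 gene models, which are not members. The FCGR3 model ENSRNOG00000049422 had more counts than Fcgr2a, with a log2 ratio of Fcgr2a to it of -1.18 ± 0.14 (SD, n = 64). The summed balance of these members overlapped between all groups, with the controls lowest in mean. The ratio of Fcgr3a to Fcgr2a within a rat averaged -2.28 ± 1.00 on the log2 scale in controls, -4.05 ± 1.30 in saline 16 C, -4.93 ± 0.87 in AMPH 16 C, -5.31 ± 1.66 in saline 39 C and -5.65 ± 1.32 in AMPH 22.5 C rats. No test was applied to these ratios, which combine members.

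**Figure D2:**
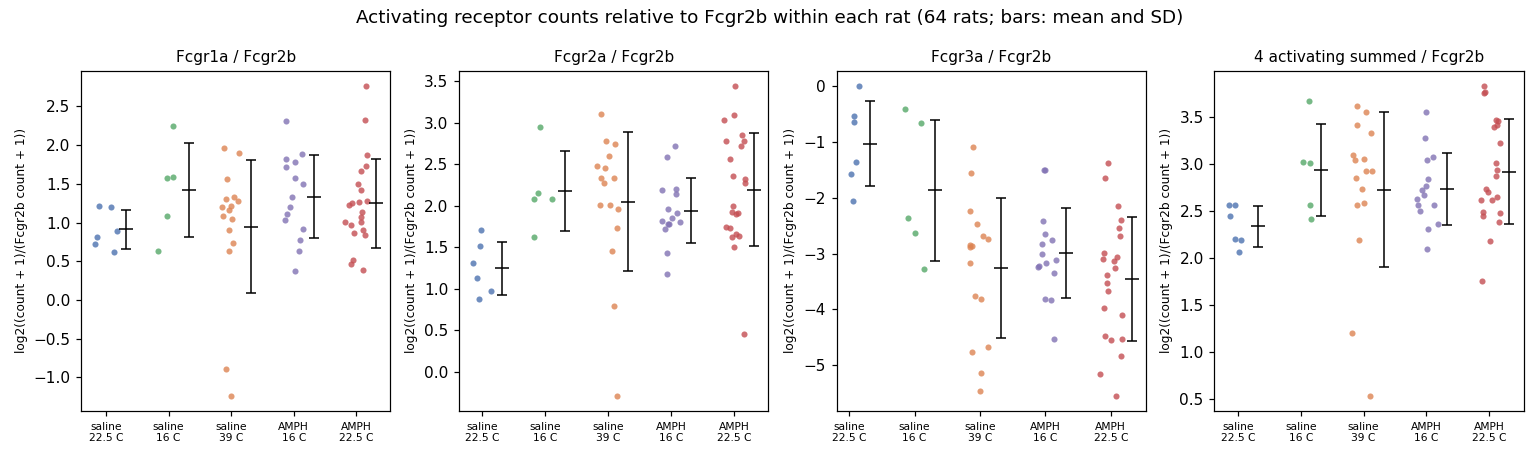
Log2 ratio of activating receptor counts to Fcgr2b counts within each rat, vertical axis, for Fcgr1a, Fcgr2a, Fcgr3a and the 4 activating genes summed, in the 5 groups, horizontal axis (64 rats, 1 point each, with the mean and SD at the side). The Fcgr3a panel shows the controls highest, at -1.03, and AMPH 22.5 C rats lowest, at -3.46.

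The comparison of AMPH at 22.5 C with AMPH at 16 C sets the hyperthermic against the normothermic drug group. The groups also differ in the temperature of the environment, and no saline group is subtracted. It therefore does not separate the drug effect from that temperature. The direct test described below was aimed at this, with few rats of shared codes. Here 10 and 9 rats shared 5 library codes, and edgeR's quasi-likelihood test was fitted over 12091 genes with the code as a covariate and Benjamini-Hochberg adjustment. Of the 7 members, 2 passed an adjusted p of 0.05, 1 higher and 1 lower in the AMPH 22.5 C rats, against 15.9% of all genes tested (7.95% higher and 7.96% lower). Fcer1g was lower in the AMPH 22.5 C rats, at 7323 to 13950.0 around a median of 12051, than in the AMPH 16 C rats, at 15331 to 23075 around a median of 17745. All 10 AMPH 22.5 C rats lay below all 9 AMPH 16 C rats. Here and below, the share of all genes that separate as fully is not given. The log2 fold change was -0.67 ± 0.13 (SE), with an adjusted p of 0.00265 in edgeR. The difference was negative within each of the 5 codes, from -1.04 to -0.45. With the replicate number as a block (6 and 6 rats) the Fcer1g call was lost, at -0.75 and an edgeR adjusted p of 0.251.

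Fcgrt was higher in the same AMPH 22.5 C rats (33.1 to 197, median 121) than in the AMPH 16 C rats (33.9 to 110.2, median 58.6), with 6 of 10 above all 9. Its log2 fold change was 0.80 ± 0.25 (SE), with an edgeR adjusted p of 0.0347, and it was positive in 4 of 5 codes. This call was lost, with adjusted p between 0.0501 and 0.0844, when any of 11 single rats was left out (AMPH 22.5 C replicates 1, 2, 3, 4, 5 and 10, and AMPH 16 C replicates 3, 4, 5, 9 and 14). It was also lost with the rats over the Mb criterion kept, at 0.66 and an adjusted p of 0.138. With the replicate number as a block (6 and 6 rats) the call was lost too, at 0.12 and an edgeR adjusted p of 0.857. The log2 fold changes of Fcgr1a (-0.05 ± 0.12), Fcgr2a (0.15 ± 0.19), Fcgr2b (0.02 ± 0.22) and Fcgr3a (-0.65 ± 0.51) did not pass the test, and their groups overlapped.

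In a list of Fc receptor pathway genes (kinases, adaptors, the NADPH oxidase, inhibitory phosphatases, other Fc receptors and B2m), 4 of 37 genes were higher and 2 lower in AMPH 22.5 C than in AMPH 16 C rats, and the median log2 fold change was 0.10 against 0.01 over all genes. Of all genes tested, 7.95% were called higher and 7.96% lower, so the list was near the share over all genes. The higher genes were Pigr, the receptor that carries polymeric immunoglobulin across epithelia (3.00), Cybb, the catalytic subunit of the phagocyte NADPH oxidase (0.67), the kinase Btk (0.50) and the phospholipase Plcg2 (0.49). The lower genes were Fcar, a receptor for IgA (-1.02), and Trim21, a receptor for antibody inside cells (-0.58). Syk (0.38), Tyrobp, an adaptor that resembles the gamma chain (-0.32), Inpp5d (0.18), Ptpn6, another inhibitory phosphatase (0.16), and B2m (-0.18) did not pass.

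Cell type markers moved in the same comparison. In edgeR, 5 of 7 monocyte markers were higher in AMPH 22.5 C rats and of the neutrophil markers 1 of 8 (Cxcr2) was lower. Of the remaining lists, 1 of 7 NK cell and 1 of 3 reticulocyte markers were lower, 1 of 6 platelet markers was higher, and none of 6 T cell and 5 B cell markers was called. DESeq2 called 5 monocyte, 4 neutrophil, 2 NK cell, 1 B cell, 1 platelet and 1 reticulocyte marker. Over all rats within the Mb criterion, the summed neutrophil markers, in kilocounts of 1000 normalized counts, ran from 48.8 to 1003 in AMPH 22.5 C and from 242 to 725 in AMPH 16 C rats, and the summed monocyte markers from 110.2 to 558 and from 230 to 577 kilocounts. Their part in the differences of Fcer1g and Fcgrt was not tested.

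AMPH at 16 C was compared with heat without the drug (saline at 39 C) in 10 and 7 rats that shared 5 codes. This comparison and the one above share AMPH 16 C rats. Of the members, 2 were called, 1 higher and 1 lower in the AMPH 16 C rats, against 12.5% of 12096 genes (5.59% higher and 6.92% lower). Fcer1g was higher in AMPH 16 C rats (16492 to 23351, median 18451) than in saline 39 C rats (8873 to 15245, median 13642), and all 10 lay above all 7. The log2 fold change was 0.56 ± 0.14 (SE), with an edgeR adjusted p of 0.0149, and it was positive in all 5 codes, from 0.39 to 0.99. With the replicate number as a block, which keeps fewer rats, the Fcer1g call was lost, at 0.48 and an edgeR adjusted p of 0.487. FCGR2A was lower, by -4.38 ± 1.06 (SE) with an edgeR adjusted p of 0.0131, a value that rests on rats at 0 counts and on shared reads (described with the gene models).

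Fcgrt (-0.59 ± 0.22, adjusted p 0.0931) and Fcgr2a (-0.51 ± 0.24, adjusted p 0.183) did not pass the edgeR test. Fcgrt passed without saline 39 C replicate 15 (adjusted p 0.0387) or AMPH 16 C replicate 1 (0.0481), and Fcgr2a without saline 39 C replicate 4 (0.0399) or AMPH 16 C replicate 5 (0.0364). Fcgr1a (-0.18 ± 0.14), Fcgr2b (0.23 ± 0.21) and Fcgr3a (0.70 ± 0.43) had adjusted p above those. Of the pathway list 9 of 38 genes were lower in AMPH 16 C rats and none was higher, with a median of -0.31 against -0.01 over all genes. Of all genes tested, 6.92% were called lower and 5.59% higher. The lower genes included the oxidase genes Cybb (-0.85) and Ncf1 (-0.61), the kinases Syk (-0.69) and Btk (-0.51), the adaptor Pik3ap1 (-0.60), the phospholipase Plcg2 (-0.65), the phosphatase gene Inpp5d (-0.63), and Fcrlb, an Fc receptor-like gene of B cells (-1.58). Tyrobp (0.34), Ptpn6 (-0.19) and B2m (-0.06) did not pass.

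In this comparison edgeR called 4 of 7 monocyte markers lower, 2 of 8 neutrophil markers (S100a8 and S100a9) and 1 of 7 NK cell markers higher, and 1 of 5 B cell markers lower in AMPH 16 C rats. The summed neutrophil markers ran from 60.3 to 330 kilocounts in all saline 39 C rats, and the summed monocyte markers from 62.9 to 668 kilocounts. Their part in the Fcer1g difference was not tested.

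**Figure D3:**
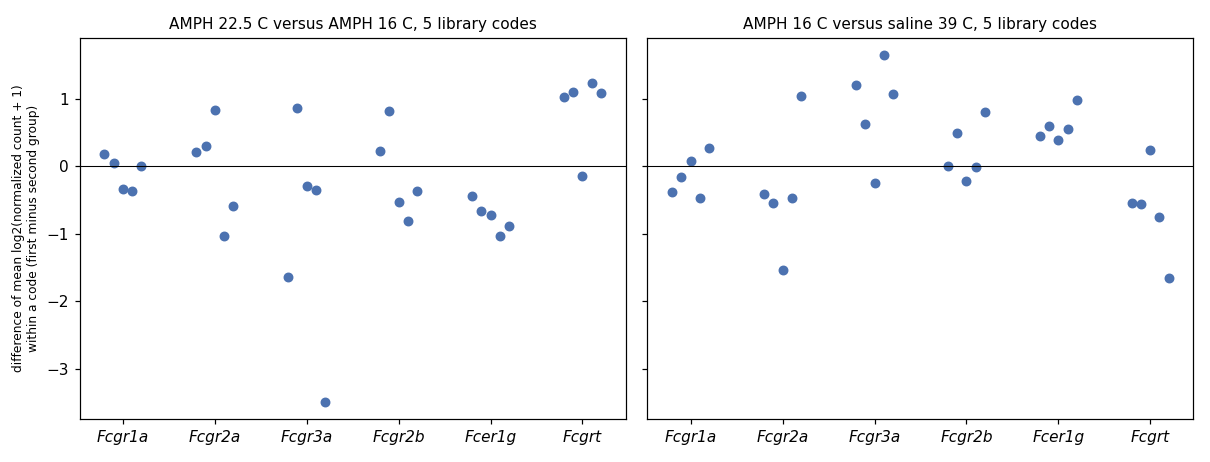
Difference between group means of log2(normalized count + 1) within each of the 5 shared library codes, vertical axis, for 6 members, horizontal axis, with 1 point per code. Fcer1g lies below 0 in all 5 codes for AMPH 22.5 C against AMPH 16 C (left, -1.04 to -0.45) and above 0 in all 5 for AMPH 16 C against saline 39 C (right, 0.39 to 0.99).

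AMPH at 22.5 C and saline at 39 C, both hyperthermic, were compared in 10 and 13 rats that shared 7 codes. None of the 7 members was called by edgeR, none had an unadjusted p under 0.05 and DESeq2 called none, while edgeR called 0.133% of 12055 genes, 13.2% had an unadjusted p under 0.05 and DESeq2 called 2.07%. The log2 fold changes were 0.11 ± 0.27 (SE) for Fcgr1a, -0.04 ± 0.34 for Fcgr2a, 0.04 ± 0.40 for Fcgr3a, 0.04 ± 0.18 for Fcgr2b, -0.02 ± 0.17 for Fcer1g and 0.14 ± 0.25 for Fcgrt. Fcer1g ran from 8203 to 18129 in the AMPH rats and from 6239 to 16699 in the saline rats. Each of these 6 genes was higher in some codes and lower in others. Of the pathway list edgeR called 0 of 37 genes, with 4 at an unadjusted p under 0.05 and 1 called by DESeq2, and Syk (-0.28), Tyrobp (0.41), Inpp5d (-0.28), Ptpn6 (0.25) and B2m (-0.51) were among those not called. No marker of the 9 cell type lists was called by edgeR, and DESeq2 called 1 neutrophil and 1 T cell marker.

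The comparison of AMPH with saline at 22.5 C set 8 AMPH rats against the 4 controls. No member was called by edgeR, which called 0% of 12853 genes, and DESeq2 called no member either and 1.35% of genes. At an unadjusted p under 0.05, 3 members (Fcgr1a, Fcgr2a and Fcgr3a) and 10.4% of all genes passed. Fcgr2a was at 17327, 7534, 1216, 8629, 15232, 7284, 9843 and 12618 normalized counts in AMPH replicates 15 to 22. Of these, 7 lay above all 4 controls and replicate 17 lay below them. Its log2 fold change was 1.77 ± 0.59 (SE), with an edgeR adjusted p of 0.427.

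Fcgr3a was at 161, 196, 344, 79.3, 84.5, 106, 281 and 231 normalized counts in the same rats. All 8 lay below the lowest control, 379. The log2 fold change was -1.36 ± 0.36 (SE), with an unadjusted p of 0.00228 and an adjusted p of 0.427 in edgeR. Fcgr1a (1.06 ± 0.49), Fcgr2b (0.81 ± 0.38) and Fcer1g (0.72 ± 0.47) had higher means in the AMPH rats and overlapped with the controls, and Fcgrt was at -0.02 ± 0.32. Within the code that held 6 AMPH rats and 3 controls, the difference in mean log2 level was 1.70 for Fcgr2a and -1.82 for Fcgr3a.

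Without AMPH replicate 17 and control 19, edgeR called 2 of 7 members, Fcgr2a at 2.45 ± 0.42 (SE, adjusted p 0.0180) and Fcgr3a at -1.63 ± 0.38 (SE, adjusted p 0.0430). In that fit it called 427 of 13024 genes, against 0 of 12853 in the main fit. Leaving out rats because they resemble the other group can by itself widen a difference. AMPH replicates 16 and 20 were kept. With all 22 AMPH rats, edgeR called Fcgr2a alone of the 7 members, at 1.73 ± 0.45 (SE, adjusted p 0.0290), and 804 of 13539 genes. The Fcer1g value depended on AMPH replicate 21, which held 43802 normalized counts against 6164 to 15530.0 in the other 7, and without it the log2 fold change was 0.29 ± 0.33. Without control 19 it was 1.12 ± 0.52.

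Of the pathway list 0 of 37 genes were called by edgeR and 0 by DESeq2, with 5 at an unadjusted p under 0.05, and the median log2 fold change was 0.34 against -0.01 over all genes. Syk (0.45), Tyrobp (0.93), Inpp5d (0.07), Ptpn6 (0.61) and B2m (0.39) were not called. No marker was called by edgeR, while DESeq2 called 1 neutrophil, 1 monocyte and 1 platelet marker. All 6 platelet markers had fold changes above 0, with a median of 1.26 and 5 at an unadjusted p under 0.05, and so had all 8 neutrophil markers, with a median of 1.11 and 2 at that p. None of the 6 T cell or 7 NK cell markers was above 0, with medians of -0.74 and -0.92, and monocyte markers were above 0 in 5 of 7. Summed neutrophil markers were at 48.8 kilocounts in AMPH replicate 17, 429 kilocounts in control 19 and 1003 kilocounts in AMPH replicate 21, over a range of 33.0 to 429 kilocounts in the controls. Their part in the members' values was not tested.

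Heat without the drug was compared with room temperature in 15 saline 39 C and the same 4 control rats. No library code held both groups, so the code and the group cannot be told apart. Of the members 2 were called, both higher in the saline 39 C rats, against 16.5% of 12986 genes (7.11% higher and 9.37% lower). Fcgr2a was higher in saline 39 C rats (2222 to 18600.0, median 8093) than in controls, with 12 of 15 above all 4, a log2 fold change of 1.68 ± 0.51 (SE) and an edgeR adjusted p of 0.0320. Fcgr2b was higher too (1185 to 2711, median 2074), with 11 of 15 above all 4, at 0.89 ± 0.27 (SE) and an edgeR adjusted p of 0.0315.

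Both calls were lost without control 17 (1.49 and 0.72), 18 (1.45 and 0.77) or 21 (1.74 and 0.93 on the log2 scale), and both held without control 19 (2.18 and 1.21). Fcgr3a was at -0.97 ± 0.47 and did not pass (adjusted p 0.148), with 12 of 15 saline 39 C rats below all 4 controls. Fcgr1a (0.90 ± 0.43), Fcer1g (0.26 ± 0.28) and Fcgrt (-0.21 ± 0.33) did not pass. Activating Fcgr2a and inhibitory Fcgr2b were thus called in the same direction here. Both FCGR3 gene models, copies described with the gene models of Fcgr2a, were also called higher. Of these, ENSRNOG00000049422 followed Fcgr2a closely (r = 0.987), and ENSRNOG00000047772 was at 0 counts in 3 of the 4 controls. Their calls are therefore no separate support for the Fcgr2a call.

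Of the pathway list 4 of 38 genes were higher and 2 lower in saline 39 C than in control rats. Of all genes tested, 7.11% were called higher and 9.37% lower, so the list was near the share over all genes. The higher genes were Fcrl5, an Fc receptor-like gene of B cells (2.00), the adaptors Gab2 (1.49) and Pik3ap1 (0.97), and Syk (0.82). The lower were Fcer2, the low-affinity IgE receptor (-1.82), and the adaptor Lat2 (-0.71). Tyrobp (0.29), Inpp5d (0.35), Ptpn6 (0.33) and B2m (0.93) did not pass. Markers moved widely in this comparison in edgeR, with 6 of 6 T cell and 4 of 7 NK cell markers lower, 5 of 6 platelet markers higher, 1 of 8 neutrophil and 1 of 7 monocyte markers higher and 1 of 5 B cell markers lower. The summed T cell markers were at 6.95 to 10.6 kilocounts in controls and at 1.13 to 7.39 kilocounts in saline 39 C rats. Their part in the Fcgr2a and Fcgr2b calls was not tested.

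The comparisons within the 16 C environment and between saline groups were the smallest. AMPH 16 C rats were set against saline 16 C rats in 13 and 5 animals, where a single code, with 1 AMPH rat, held both groups. No member was called by edgeR, 3 had an unadjusted p under 0.05 (Fcgr1a, Fcgr2b and Fcgrt) and DESeq2 called 1 (Fcgrt), against 0.444% of 12396 genes in edgeR, 15.5% at the unadjusted p and 2.88% in DESeq2. Fcgrt was at 108, 130.0, 107, 127 and 115 normalized counts in the saline rats and at 33.9 to 110.2 in the AMPH rats, of which 11 of 13 lay below all 5. The log2 fold change was -0.80 ± 0.23 (SE), with an edgeR adjusted p of 0.107 and an adjusted p of 0.0375 in DESeq2. Within the shared code the difference was -0.48.

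Fcgr1a (0.39 ± 0.16), Fcgr2a (0.29 ± 0.16), Fcgr2b (0.55 ± 0.26), Fcer1g (0.08 ± 0.14) and Fcgr3a (-0.70 ± 0.49) did not pass either. Of the pathway list 1 of 37 genes was lower in edgeR and DESeq2 called 2, with 9 at an unadjusted p under 0.05. Syk (-0.02), Tyrobp (0.13), Inpp5d (0.05), Ptpn6 (0.06) and B2m (-0.07) were not called by edgeR. No marker was called by edgeR, and DESeq2 called 2 monocyte and 1 B cell marker. All 5 B cell markers had fold changes below 0 and an unadjusted p under 0.05. The summed B cell markers were at 6.43 to 11.9 kilocounts in saline and 3.16 to 8.66 kilocounts in AMPH rats, and their part in the Fcgrt values was not tested.

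Saline rats at 16 C were set against the same 4 controls (5 and 4 rats, no shared code, so code and group cannot be told apart). No member was called by edgeR, 3 had an unadjusted p under 0.05 (FCGR2A, Fcgr2a and Fcer1g) and DESeq2 called 2 (Fcgr2a and Fcer1g), against 0.00817% of 12238 genes in edgeR, 26.3% at the unadjusted p and 11.4% in DESeq2. Fcer1g was at 12592, 17438, 22611, 20561 and 15177 normalized counts in saline 16 C rats and at 6279, 6428, 15488 and 8324 in controls, so that 3 of 5 lay above all 4. The log2 fold change was 0.97 ± 0.31 (SE), with an edgeR adjusted p of 0.0989. Without control 19 it was 1.40 ± 0.23, with an adjusted p of 0.00601.

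Fcgr2a (1.07 ± 0.38, and 1.61 with an edgeR adjusted p of 0.00891 without that control) and Fcgr1a (0.74 ± 0.38, and 1.19 with an edgeR adjusted p of 0.0386 without it) were also called without control 19. Fcgr2b (0.44 ± 0.34), Fcgr3a (0.08 ± 0.54) and Fcgrt (-0.14 ± 0.21) did not pass in either fit. The share of all genes called without control 19 is not given here. That control was picked from expression in these same data, so these calls are no independent support. Of the pathway list 0 of 37 genes were called by edgeR, with 9 at an unadjusted p under 0.05 and 5 called by DESeq2, and Syk (0.29), Tyrobp (0.77), Inpp5d (-0.18), Ptpn6 (0.30) and B2m (0.75) were not called by edgeR. All 8 neutrophil markers had fold changes above 0, with a median of 1.26 and 4 at an unadjusted p under 0.05, and DESeq2 called none of them. All 6 platelet markers were above 0 and none of the 6 T cell markers was, with 4 of each at that p and 2 of each called by DESeq2. The summed neutrophil level was at 358 to 812 kilocounts in saline 16 C and at 33.0 to 429 kilocounts in control rats, with 429 kilocounts in control 19, and the part of these markers in the members' values was not tested.

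A direct test of whether the AMPH effect differed between 22.5 C and 16 C, in 1 fit of all 59 rats over 14000 genes with the library code, called none of the 7 members in edgeR. The difference of log2 fold changes was largest for FCGR2A (1.17 ± 2.26, SE) and Fcgr2a (1.15 ± 0.71), and adjusted p ran from 0.736 to 0.989. Unadjusted p was at least 0.113. For Fcer1g the AMPH effect was 0.27 at 22.5 C and 0.11 at 16 C, a difference of 0.15 ± 0.36. The code that held all 5 saline 16 C rats held 1 AMPH 16 C rat, and the controls shared codes with AMPH 22.5 C rats alone. A test that rests on so few shared codes cannot show that the AMPH effect was the same at both temperatures.

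**Figure D4:**
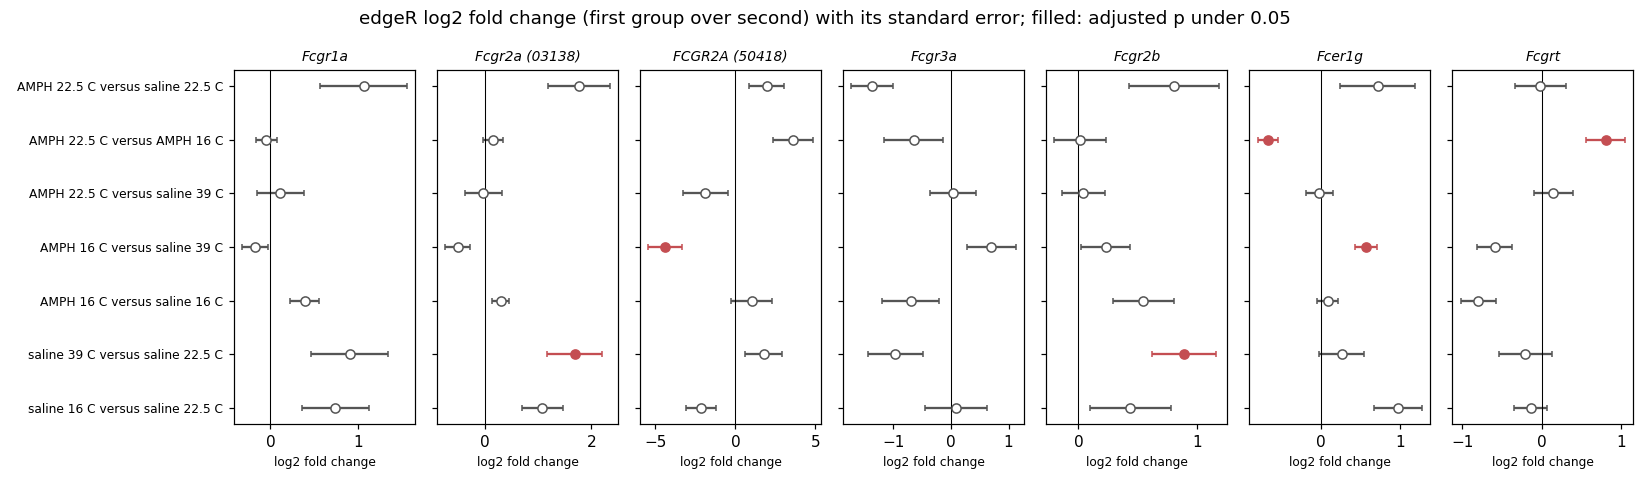
Log2 fold change of each member (1 panel each, horizontal axis) with its standard error in the 7 comparisons, vertical axis, from edgeR, filled where the adjusted p was under 0.05. Filled points are Fcer1g and Fcgrt in AMPH 22.5 C versus AMPH 16 C, Fcer1g and FCGR2A in AMPH 16 C versus saline 39 C, and Fcgr2a and Fcgr2b in saline 39 C versus saline 22.5 C.

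The low-affinity receptor genes are close copies of each other, and RSEM estimates counts by dividing shared reads. Counts were not whole numbers in 98.4% of rats for Fcgr2a and Fcgr2b, in 81.2% for Fcer1g, in 75.0% for FCGR2A and in 40.6% for Fcgr1a, but in 6.2% for Fcgr3a and Fcgrt. The values of Fcgr2a, FCGR2A, Fcgr2b and Fcer1g are therefore uncertain where reads fit more than 1 gene. A gene model that is not a member, FCGR3 (ENSRNOG00000049422), kept nearly the same ratio to Fcgr2a in all rats, with a log2 ratio of Fcgr2a to FCGR3 of -1.18 ± 0.14 (SD, n = 64).

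FCGR2A had 0 counts in 15 of 64 rats, and a second FCGR3 model (ENSRNOG00000047772) had 0 in another 15. No rat had 0 in both, and 34 had counts of both. FCGR2A was at 0 in 7 of 15 AMPH 16 C, 4 of 22 AMPH 22.5 C, 2 of 16 saline 39 C, 2 of 5 saline 16 C and 0 of 6 control rats, while its highest count, 5519, was in an AMPH 22.5 C rat. The second FCGR3 model was at 0 in 4 of 6 controls and in 0 of 16 saline 39 C rats. Rats at 0 for FCGR2A were found in 4 of the 5 groups, and rats at 0 for the second FCGR3 model also in 4 of 5.

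FCGR2A levels averaged 61.7 ± 64.9 normalized counts (SD, n = 5) in saline 16 C, 127 ± 151 (n = 13) in AMPH 16 C, 274 ± 147 (n = 4) in control, 683 ± 887 (n = 22) in AMPH 22.5 C and 976 ± 1093 (n = 15) in saline 39 C rats. The SD exceeded the mean in all groups but the controls. Between AMPH 22.5 C and AMPH 16 C rats the log2 fold change was 3.61 ± 1.25 (SE), with an edgeR adjusted p of 0.057. It passed without AMPH 22.5 C replicate 2 or 6 or AMPH 16 C replicate 15 (adjusted p 0.0208 to 0.0380), and in DESeq2 at 4.95 (adjusted p 0.0229). Between saline 16 C rats and controls it was -2.14 ± 0.95 (adjusted p 0.183), with all 5 saline 16 C rats below all 4 controls. It was 1.96 ± 1.11 for AMPH 22.5 C against controls, 1.77 ± 1.18 for saline 39 C against controls, 1.02 ± 1.27 for AMPH 16 C against saline 16 C and -1.87 ± 1.39 for AMPH 22.5 C against saline 39 C rats, none of them called. The fold changes of FCGR2A carried standard errors of 0.95 to 1.39.

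**Figure D5:**
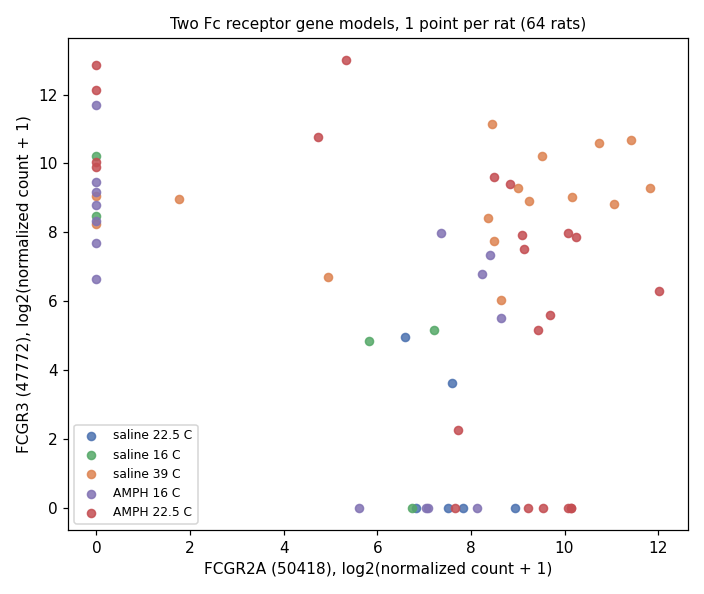
Level of FCGR2A (horizontal axis) against the FCGR3 model ENSRNOG00000047772 (vertical axis), both as log2(normalized count + 1), with 1 point per rat (64 rats) coloured by group. Points on the left edge are the 15 rats without FCGR2A counts and points on the lower edge the 15 without FCGR3 counts, and none lies at the corner.

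The genes whose levels followed each member most closely were sought by Pearson's r of log2(normalized count + 1) over the 59 rats among 8016 genes, as a description. For Fcgr1a they were Tlr2 (r = 0.887), Bst1 (0.885), Atp6v1g1 (0.883), Ralb (0.883) and Clic1 (0.879), and r of the deviations from group means was 0.860 to 0.902 for these. For Fcgr2a they were FCGR3 ENSRNOG00000049422 (0.987), ENSRNOG00000046663 (0.950), Ppp1r3d (0.935), Upp1 (0.933) and Osbpl9 (0.931). For Fcer1g they were Fam82b (0.881), Aph1b (0.860), Tspo (0.859), Glipr1 (0.857) and Tnnc1 (0.847). For Fcer1g r of the deviations from group means was 0.776 to 0.838, so these genes followed the gamma chain within groups too.

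Fcgr2b was followed less closely, by Vapa (r = 0.734), Morf4l2 (0.711), Vcan (0.694), Msr1 (0.692) and Cebpb (0.691). Fcgr3a was followed by Pla2g2d (0.743), Fpr3 (0.664), Emr1 (0.574), Eno3 (0.545) and Klri1 (0.543). For Fcgrt the list was ENSRNOG00000020125 (0.685), As3mt (0.651), Fcrla (0.634), Iglc2 (0.634) and Dnase2a (0.633), of which Fcrla and Iglc2, an immunoglobulin light chain, are genes of B-lineage cells. For FCGR2A it was Btk (0.608), Ikbkg (0.600), Socs4 (0.595), Fgd4 (0.592) and Uggt1 (0.590). The rats share library codes and group means, and r within groups ran from 0.469 to 0.725 for the genes of Fcgr3a.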

How the data were processed

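Globin-depleted whole blood RNA of 64 rats was sequenced. Per the labels and methods, the authors used Bowtie 0.12.9 to place clipped reads on rat Ensembl transcripts (rn5) and RSEM 1.2.0 to estimate counts per gene. CASAVA 1.8.2 made the read files. The deposited values are expected counts, not normalized, which were rounded to whole numbers here. The study's replacement of outlying counts was not applied here.

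The members, lists and tests were chosen with earlier results of these data known. A gene entered a fit when it was listed for all its rats and had at least 10 counts in as many rats as the smaller group. The edgeR 4.0.16 quasi-likelihood test (TMM) in R 4.3.3, with Benjamini-Hochberg adjustment over all genes tested, was the main test, called at an adjusted p of 0.05. DESeq2 1.42.0 gave normalized counts and an alternative test. Errors are SDs between rats, or standard errors of fold changes. Each label names 1 animal, so replicates are single rats. Library pairs within a group differed by a chi-square per gene of 56.2 or more, so no library was counted as a repeat within its group. Pairs across groups were not compared in this way.

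Rats with over 5000 Mb counts were left out of all groups. The AMPH 22.5 C, AMPH 16 C and saline 39 C groups were compared with each other in rats of shared library codes, with the code as covariate. Alternatives were DESeq2, DESeq2 size factors in edgeR, no filter, the Mb rats kept, other sets of rats, the library code, the replicate number as a block, all 5 groups in 1 fit, a pseudocount of 0.5 and 89 fits leaving out 1 rat. Named pathway genes were Tyrobp, Syk, Inpp5d, Ptpn6 and B2m and up to 10 called genes with the largest fold change. Some pathway genes called by this rule are not reported here. Pathway and marker lists held 42 and 55 symbols, of which 40 and 52 were in the files. The fits were tested on simulated data. The lowest counts in any rat within the Mb criterion were 25 for Fcgrt and 26 for Fcgr3a, so these are the least precise of the members present in all rats. Python 3.11.15, pandas 2.3.3, scipy 1.17.1, numpy 2.4.6 and matplotlib 3.10.9 were used for the rest.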

Additional observations from a re-analysis of the deposited data

Results flagged for a closer look

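In 21 sets of 4 to 8 rats, members were screened for a rat whose gap to its nearest neighbour exceeded the 95% limit of Dixon's ratio, which chance passes in about 1 of 20 sets. FCGR2A in control 21 stood at 492 normalized counts against 182 to 227 in the other 3 controls, and in AMPH 22.5 C replicate 15 at 4168 against 0 to 1204 in the other 7 of the rats numbered 15 to 22. Fcer1g in AMPH 22.5 C replicate 21 stood at 43802 against 6164 to 15530.0, and Fcgrt in the same rat at 271 against 84.5 to 142. AMPH replicate 21 was the only rat of its library code, and its summed neutrophil and reticulocyte markers, 1003 and 1038 kilocounts (of 1000 normalized counts), were the highest of the 8. The part of these values in its receptor levels was not tested.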

How the results depend on the processing

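Of the alternative counts of called members, 112 stayed within 1.5 times the reported count and 23 did not. Of the alternative fold changes, 836 kept their direction and side of the threshold, 23 passed it newly, 23 no longer passed it and 62 turned direction, and all 85 alternative ratios and levels moved by less than 1 SD. For AMPH 22.5 C versus saline 22.5 C the count of members went from 0 to 1 with all 22 AMPH rats, to 1 with all 5 groups in 1 fit and to 2 without both doubted libraries, and it was 0 to 0 with 1 rat left out. For AMPH 22.5 C versus AMPH 16 C it went from 2 to 1 with the Mb rats kept and ran from 1 to 3 with 1 rat left out, for AMPH 16 C versus saline 39 C from 2 to 3, for saline 39 C versus saline 22.5 C from 0 to 2 and for saline 16 C versus saline 22.5 C from 0 to 3. It went from 2 to 0 for saline 39 C versus saline 22.5 C with all 5 groups in 1 fit. DESeq2 gave 1 member for AMPH 16 C versus saline 16 C and 2 for saline 16 C versus saline 22.5 C, against 0 each. The causes were not tested. Whether the replicate numbers pair the rats was not settled. The lowest correlation of same-numbered rats was -0.07, -0.05, -0.22, -0.20 and -0.13 in the 5 comparisons that share numbers, but a lowest value cannot exclude pairing. The median of same-numbered rats was above that of other rats in AMPH 22.5 C versus saline 22.5 C (0.122 against 0.028) and versus AMPH 16 C (0.040 against 0.0002). In the other comparisons it was below. With the replicate block, which keeps fewer rats, the count was 1 for AMPH 22.5 C versus AMPH 16 C and 1 for AMPH 16 C versus saline 39 C, where Fcer1g was at -0.75 (adjusted p 0.251) and 0.48 (adjusted p 0.487), and 0 in the other 3. In the first of these Fcgrt was at 0.12 (adjusted p 0.857) and FCGR2A at 12.79 (adjusted p 0.00558). No paired analysis was possible because saline 39 C or saline 16 C rats share 0 replicate numbers with the controls. Small fold changes turned direction. Under the replicate block they were 0.0625 for Fcgrt in AMPH 22.5 C versus saline 22.5 C, 0.0125 for Fcgr1a in AMPH 22.5 C versus AMPH 16 C, 0.70, 0.082, 0.25 and -0.12 for FCGR2A, Fcer1g, Fcgr2a and Fcgr3a in AMPH 22.5 C versus saline 39 C and -0.009 for Fcgr2b in AMPH 16 C versus saline 39 C. Without the library code they were -0.052 for Fcgr2b in AMPH 22.5 C versus AMPH 16 C, 0.19, 0.0015, -0.029 and -0.30 for Fcer1g, Fcgr2a, Fcgr2b and Fcgr3a in AMPH 22.5 C versus saline 39 C and 0.16 for Fcgr1a in AMPH 16 C versus saline 39 C. They were 0.0036 for Fcgrt in AMPH 22.5 C versus saline 22.5 C with DESeq2 size factors, 0.105 for Fcgr1a in AMPH 22.5 C versus AMPH 16 C and -0.19 for Fcgr3a in saline 16 C versus saline 22.5 C with all 5 groups in 1 fit, and -0.0055 for the latter with the Mb rats kept. With 1 rat left out, they ran from -0.25 to 0.11 for Fcgrt in AMPH 22.5 C versus saline 22.5 C, from -0.16 to 0.13 for Fcgr2b in AMPH 22.5 C versus AMPH 16 C, from -0.074 to 0.031, -0.26 to 0.11, -0.044 to 0.18 and -0.20 to 0.26 for Fcer1g, Fcgr2a, Fcgr2b and Fcgr3a in AMPH 22.5 C versus saline 39 C, from -0.016 to 0.19 for Fcer1g in AMPH 16 C versus saline 16 C and from -0.56 to 0.31 for Fcgr3a in saline 16 C versus saline 22.5 C. Over all genes, edgeR called 0, 16, 55, 2140 and 1 genes and DESeq2 186, 270, 404, 3391 and 1299 for AMPH 22.5 C versus saline 22.5 C, AMPH 22.5 C versus saline 39 C, AMPH 16 C versus saline 16 C, saline 39 C versus saline 22.5 C and saline 16 C versus saline 22.5 C. In edgeR, AMPH 22.5 C versus saline 22.5 C gave 804 with all AMPH rats, 427 without the doubted libraries and 355 with all groups in 1 fit. All groups in 1 fit gave 379 genes for AMPH 22.5 C versus saline 39 C, 402 for saline 39 C versus saline 22.5 C and 0 for AMPH 16 C versus saline 16 C. Without the library code, AMPH 22.5 C and AMPH 16 C versus saline 39 C gave 526 and 3393, the latter against 1513. The block gave 260 for AMPH 22.5 C versus AMPH 16 C against 1924, 0 and 263 for AMPH 22.5 C and AMPH 16 C versus saline 39 C and 116 for AMPH 16 C versus saline 16 C. Keeping the Mb rats gave 28 for AMPH 16 C versus saline 16 C, 4351 for saline 39 C and 69 for saline 16 C versus saline 22.5 C. Leaving out each AMPH 16 C rat against saline 16 C rats and each saline 39 C rat against controls was not run.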

Other observations

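The ratio of the gamma chain to the receptors that need it differed in level between groups, a pattern noticed after the values were seen. The log2 ratio of Fcer1g to Fcgr1a counts within a rat was 2.17 ± 0.33 (SD, n = 6) in controls, 2.30 ± 0.07 (n = 5) in saline 16 C, 2.01 ± 0.24 (n = 15) in AMPH 16 C, 1.53 ± 0.55 (n = 16) in saline 39 C and 1.42 ± 0.46 (n = 22) in AMPH 22.5 C rats. The ratio of Fcer1g to Fcgr2a was 1.83 ± 0.33 in controls, 1.54 ± 0.33 in saline 16 C, 1.41 ± 0.33 in AMPH 16 C, 0.43 ± 0.64 in saline 39 C and 0.47 ± 0.83 in AMPH 22.5 C rats. Both hyperthermic groups had the lowest mean of both ratios, and their ranges overlapped with those of the other groups. These ratios were not tested.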
